A study of Homo sapiens with 6 samples.

Results

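The red cell membrane and skeleton genes examined here were SPTB, EPB41, ANK1, EPB42, SLC4A1, GYPB, GYPC and RHAG, 8 of the 20163 protein-coding genes annotated on hg19. They were chosen by name, and every SMARCA4 peak that shared at least 1 bp with the span of a member or with the 10 kb on each side of it, called its window here, was taken. This gave 45 of the 28265 peaks in the list. SMARCA4 is the ATPase of the SWI/SNF chromatin remodelling complex, and its chromatin sites were mapped by ChIP-seq in K562, an established chronic myelogenous leukaemia line. There was a single condition, with 3 SMARCA4 ChIP libraries and 3 input libraries, all from cells fixed with disuccinimidyl glutarate (2 mM, 30 min) followed by formaldehyde (1%, 10 min) and sheared to fragments of 150 to 400 bp. The series description calls the replicates technical and mentions a single input, while the publication calls them biological. The list merges the 3 replicates and carries only positions, so no value below has a spread between replicates, and the read depth behind a peak is unknown.

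The red cell membrane is held in shape by a spectrin network under the lipid bilayer. Beta-spectrin, encoded by SPTB, is tied to the membrane at one set of sites by ankyrin-1 (ANK1) and protein 4.2 (EPB42), which bind the anion exchanger band 3 (SLC4A1), and at another by protein 4.1 (EPB41), which binds glycophorin C (GYPC). Glycophorin B (GYPB) and the Rh-associated glycoprotein (RHAG) are further membrane proteins of red cells, and GATA1, which binds GATA sites in DNA, is a main transcription factor of the red cell lineage.

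K562 cells carry many features of red cell precursors, and the peaks were set beside marker genes. A promoter peak, meaning a peak within 1 kb on either side of any annotated transcript start of the gene, was present at 9 of 9 erythroid markers (GATA1, TAL1, KLF1, NFE2, LMO2, HBG1, HBE1, TFRC and EPOR), compared with 48.1% of all protein-coding genes. Of the markers of other cell types, PAX5 was the only 1 of 4 B cell genes with a promoter peak, and 0 of 4 T cell genes and 0 of 4 hepatocyte genes had one. Counting any peak in the window, 3 of 4 B cell genes, 1 of 4 T cell genes and 0 of 4 hepatocyte genes had one, beside 63.0% of all coding genes. The erythroid markers were thus above the background. The lists were chosen with earlier results of these data known, so this is a description and not an independent check of the line. With 4 genes, the 95% Wilson interval of a share of 0% reached up to 49.0%. For promoter peaks this took in the 48.1% of all coding genes, so the lists of other cell types say little there. For any peak, the interval of the hepatocyte genes ended below 63.0%, while those of the B cell and T cell genes took it in.

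A GATA site was counted as GATAA or GATAG preceded by A or T, on either strand. Sequences of promoter peaks are shown for 7 members, each as the 100 bases with the most sites in the promoter peak nearest the start of the main coding transcript, so that the GATA sites of these peaks can be seen. None is printed for ANK1. The SLC4A1 bases are centred 1370 bp downstream of the main start, since its promoter peak reaches to within 1 kb of the start but extends further into the gene. They are hg19 sequence written 5' to 3' on the strand of the gene, with GATA sites in capitals, and windows with more than 30 bases of untranslated exon were passed over. Of all 28265 peaks, 40.2% had a GATA site in the 200 bp around their centre, and since the windows printed were picked for their sites, the number of sites in them is not comparable with that share.
SPTB promoter peak (chr14:65346640-65346739, minus strand): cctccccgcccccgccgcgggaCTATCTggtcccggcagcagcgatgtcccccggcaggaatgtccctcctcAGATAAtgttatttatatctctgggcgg
EPB41 promoter peak (chr1:29241256-29241355, plus strand): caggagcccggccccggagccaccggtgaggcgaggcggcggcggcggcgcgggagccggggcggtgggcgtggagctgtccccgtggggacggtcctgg
EPB42 promoter peak (chr15:43513525-43513624, minus strand): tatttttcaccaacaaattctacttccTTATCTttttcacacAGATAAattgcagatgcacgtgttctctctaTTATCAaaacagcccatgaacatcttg
SLC4A1 promoter peak (chr17:42344084-42344183, minus strand): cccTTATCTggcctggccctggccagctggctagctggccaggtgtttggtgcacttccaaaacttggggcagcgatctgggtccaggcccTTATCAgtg
GYPB promoter peak (chr4:144940504-144940603, minus strand): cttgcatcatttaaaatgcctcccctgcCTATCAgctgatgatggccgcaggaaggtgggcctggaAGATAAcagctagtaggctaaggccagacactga
GYPC promoter peak (chr2:127413623-127413722, plus strand): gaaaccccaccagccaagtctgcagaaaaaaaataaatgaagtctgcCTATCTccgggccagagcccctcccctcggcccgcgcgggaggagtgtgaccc
RHAG promoter peak (chr6:49604061-49604160, minus strand): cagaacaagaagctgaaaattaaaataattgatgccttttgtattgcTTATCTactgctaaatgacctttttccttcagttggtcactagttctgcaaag

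The EPB41 window held 0 GATA sites, since the peak over its main start had none, while the other windows held 1 to 3. The same was done for the peak with the most GATA sites of each of these 7 genes, which for EPB42 was the promoter peak already shown. Where 2 peaks had equally many, 3 each in SPTB and 4 each in EPB41, the one with more sites per kb was taken. These peaks lay in introns of SPTB, GYPB and GYPC, over an exon of EPB41, past the 3' end of SLC4A1 and upstream of RHAG.
SPTB intron (chr14:65311849-65311948, minus strand): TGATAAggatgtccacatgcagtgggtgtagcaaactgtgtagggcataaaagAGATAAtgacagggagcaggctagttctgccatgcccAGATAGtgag
EPB41 exon peak (chr1:29359480-29359579, plus strand): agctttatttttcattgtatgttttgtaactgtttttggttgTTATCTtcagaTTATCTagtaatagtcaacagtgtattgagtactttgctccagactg
SLC4A1 downstream (chr17:42323499-42323598, minus strand): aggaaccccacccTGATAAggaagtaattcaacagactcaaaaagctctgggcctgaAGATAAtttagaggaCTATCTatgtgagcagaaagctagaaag
GYPB intron (chr4:144924775-144924874, minus strand): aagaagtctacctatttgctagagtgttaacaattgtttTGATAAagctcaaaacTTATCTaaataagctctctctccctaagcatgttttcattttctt
GYPC intron (chr2:127431759-127431858, plus strand): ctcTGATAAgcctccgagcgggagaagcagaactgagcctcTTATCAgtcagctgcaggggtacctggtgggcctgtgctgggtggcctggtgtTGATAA
RHAG upstream (chr6:49614161-49614260, minus strand): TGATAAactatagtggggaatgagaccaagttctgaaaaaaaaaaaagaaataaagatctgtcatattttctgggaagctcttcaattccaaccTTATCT

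All 8 members had at least 1 peak in their window, so there was no member without one. Among all protein-coding genes the share was 63.0%, and among coding genes with windows of similar length it ran from 64.8% for windows like that of ANK1 to 69.6% for those like SPTB. A promoter peak was present at 8 of 8 members, compared with 48.1% of coding genes, and a peak away from the gene's own promoters at 8 of 8, compared with 45.2%. The promoter count was 7 of 8, without SLC4A1, when only 1 kb upstream of a start, 500 bp on either side or the peak midpoint was counted. The share of all coding genes under these stricter rules is not given here, and the 48.1% is not comparable with the 7 of 8. With 8 genes the 95% Wilson interval of a share of 100% reached down to 67.6%. Wilson intervals here cover counting error only, and neighbouring peaks are not independent.

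**Figure D1:**
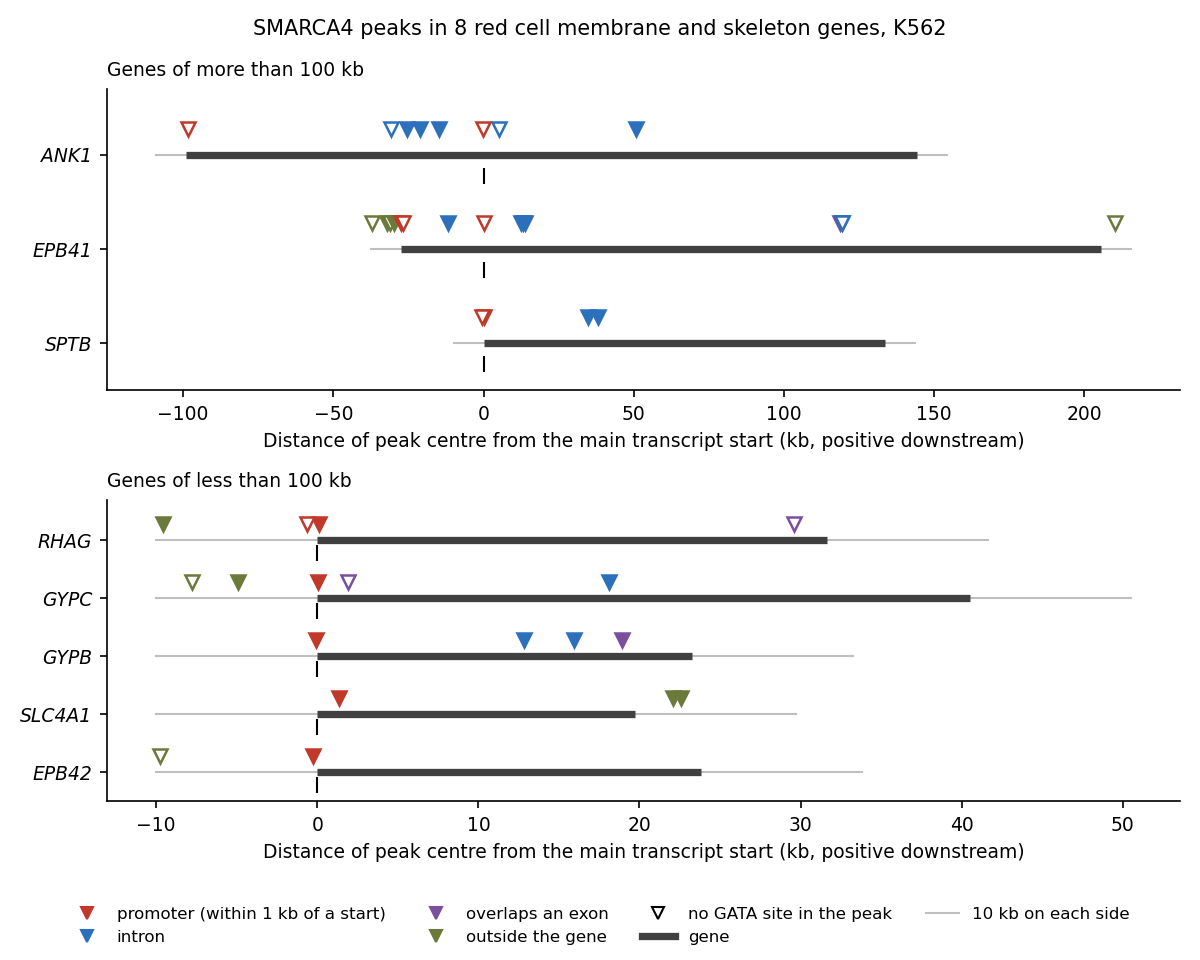
Positions of the 45 peaks (triangles) along the 8 genes, as the distance of the peak centre from the start of the main coding transcript in kb, with genes of over 100 kb in the upper panel and shorter ones in the lower. Colour gives the annotated feature, and open triangles mark the 17 peaks with no GATA site. All genes have a peak within 1 kb of a start, which in SLC4A1 lies downstream of it without covering it, and EPB41 holds 15 of the 45 peaks.

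By annotated feature, 13 of the 45 peaks were promoter peaks, whether inside or outside the gene. Of the others, 17 lay in introns, 4 overlapped an exon and 11 lay outside the gene within its flanks. Of these 11, 8 lay upstream and 3 downstream. Intronic peaks were found in 5 members, SPTB, EPB41, ANK1, GYPB and GYPC. EPB42, SLC4A1 and RHAG had no peak classed as intronic, although the promoter peak of SLC4A1 lay within the gene. Peaks outside the gene, other than promoter peaks, were found at EPB41, EPB42, SLC4A1, GYPC and RHAG.

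SPTB, which encodes the beta-spectrin of the red cell skeleton, had 4 peaks in a window of 153625 bp. The peak over the start of its main transcript, chr14:65346427-65346866, was 440 bp wide with 75.2% GC and 2 GATA sites, one of which formed an E-box and GATA composite (CTG, 7 to 9 bases, then a GATA site). A second promoter peak of 450 bp lay 149 bp further upstream and had 0 GATA sites. Both of these peaks were GC-rich, and both were also within 1 kb of the start of a long non-coding RNA.

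The other SPTB peaks were in intron 1. The peak at chr14:65308014-65308989 was 976 bp wide with 3 GATA sites, and that at chr14:65311812-65312051 also had 3 sites in only 240 bp, or 12.5 per kb, the highest density among the 45 peaks. Its nearest site was 14.0 bp from the peak centre. Of the 6 distinct annotated starts of SPTB, 1 lay within 1 kb of a peak, and it was the start of the main transcript.

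EPB41, whose product links spectrin and actin to glycophorin C, had the most peaks of any member, 15 in a window of 252956 bp. Among the 857 coding genes with windows of similar length, 0.350% had as many peaks or more, and the median was 1. For the other members this share ran from 7.65% for ANK1 to 45.8% for EPB42, each among genes with windows like its own. The peaks were grouped: 6 of the gaps between neighbours were at most 500 bp, and joining such neighbours left 9 regions. They fell at the upstream flank, at 2 promoter regions, in intron 1, around exon 9 and past the 3' end.

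The widest of the 45 peaks, chr1:29210224-29212135, was upstream of EPB41, 1468 bp from the nearest of its starts, and spanned 1912 bp with 4 GATA sites. With it lay a peak of 736 bp with 3 GATA sites, a peak of 208 bp and a peak of 92 bp, both with 0. At the outermost promoter, chr1:29213373-29213839 covered the starts of 11 transcripts and had 70.4% GC, 1 GATA site and 5 G4 motifs, each made of 4 guanine runs (3 or more G in a run) with 1 to 7 bases between runs, on either strand. It was followed by a promoter peak of 368 bp without a GATA site.

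The peak over the main EPB41 start, chr1:29240882-29241681, was 800 bp wide, covered the starts of 13 transcripts and had 72.2% GC and 0 GATA sites. In the introns downstream the composition was different. The peaks of 937, 290 and 660 bp in intron 1 of the main transcript had 3, 2 and 3 GATA sites at 34.7%, 40.7% and 39.8% GC. A peak of 368 bp in intron 1 of transcripts from the outer promoter had 2 sites, the nearest 6 bp from its centre. GATA sites of EPB41 were thus found mainly in the upstream, intronic and exonic peaks, with 1 of its 22 sites in a promoter peak. The list as a whole was alike in this. Promoter peaks of all coding genes had 0.913 sites per kb, and other peaks in coding gene windows 3.59.

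Over exon 9 of the main transcript, the peak chr1:29359352-29360057 was 706 bp wide with 4 GATA sites, and was followed within intron 9 by peaks of 60 bp and 187 bp with 0. The last peak, of 773 bp past the 3' end of EPB41, was within 1 kb of the start of a neighbouring coding gene, TMEM200B, and had 73.4% GC and 0 GATA sites. It was the only one of the 32 member peaks away from their own promoters that was a promoter peak of another coding gene. Of the 30 distinct starts of EPB41, 15 lay within 1 kb of a peak, and these were the 15 that a peak covered.

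EPB42 encodes protein 4.2, which binds band 3 and ankyrin. It had 2 peaks, of which the promoter peak chr15:43513039-43513982 was 944 bp wide and covered the main start. This peak held 7 GATA sites, the most of the 45, with 3 matches to the E-box and GATA composite. Its GC content was 46.8%, well under the median of 64.4% of the 13 member promoter peaks. The other EPB42 peak, of 371 bp, lay upstream with its centre at -9772 bp from the main start and had 0 GATA sites.

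ANK1 encodes ankyrin-1, the adaptor between beta-spectrin and band 3, and had 8 peaks in a window of 263521 bp. The promoter peak at its main start, chr8:41654676-41655794, was the widest promoter peak of the members at 1119 bp and had 63.2% GC and 0 GATA sites. The promoter peak near the outermost starts, chr8:41753471-41753716, was 246 bp wide, lay 334 bp from the nearest of them without covering it, and also had 0. Neither ANK1 promoter peak thus had a GATA site, in contrast to the promoter peak of EPB42.

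The remaining 6 ANK1 peaks were intronic. Of those, 4 lay upstream of the main start in intron 1 of the transcript from the outermost promoter, at -14879, -21244, -25501 and -30988 bp, and had 3, 2, 2 and 0 GATA sites. The peak of 352 bp at -14879 bp had a site 9 bp from its centre. A peak of 200 bp in intron 2, 50605 bp downstream of the main start, had 1 site, and a peak of 669 bp at 5123 bp had 0 GATA sites and 2 AP-1 sites (TGANTCA). Of the 13 distinct starts of ANK1, 4 were within 1 kb of a peak, and the starts 132348 bp downstream of the main start were 60746 bp from the nearest peak.

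SLC4A1 encodes band 3, the anion exchanger that anchors the skeleton, and had 3 peaks in a window of 39752 bp. Its promoter peak, chr17:42343659-42344648, was 990 bp wide with 3 GATA sites but covered none of the annotated starts. It began 855 bp downstream of the main start, and 0 of the 4 starts lay in a peak. SLC4A1 was the only member without a peak over any start.

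The other SLC4A1 peaks lay past the 3' end of the gene and were 76 bp apart. The larger, chr17:42323065-42323807, was 743 bp wide and held 4 GATA sites, with 3 matches to the E-box and GATA composite. The smaller was 177 bp wide with 1 site. All 3 SLC4A1 peaks therefore had a GATA site, and its window had 4.19 sites per kb inside peaks compared with 1.40 outside.

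GYPC encodes glycophorin C, the membrane partner of protein 4.1, and had 5 peaks. Its promoter peak, chr2:127413469-127414139, was 671 bp wide, covered all 5 annotated starts and had 67.1% GC and 1 GATA site. The peak in intron 1, chr2:127431503-127432198, was 696 bp wide and held 3 sites, the nearest 5.00 bp from its centre. Of the upstream peaks, that of 314 bp had 2 sites and that of 364 bp had 0, and a peak of 244 bp over an exon of a transcript with no defined coding sequence had 0.

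RHAG encodes the glycoprotein that assembles with the Rh proteins, and had 4 peaks. The promoter peak chr6:49603953-49604881 was 929 bp wide, covered the main start and had only 38.2% GC, with 2 GATA sites. A second promoter peak of 92 bp had 0. The widest RHAG peak, chr6:49613509-49614809, lay upstream with its centre at -9607 bp, was 1301 bp wide and held 4 sites, the nearest 4.50 bp from its centre. A peak of 200 bp overlapped exon 8 and had 0 GATA sites and 1 CCACACCC box.

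GYPB encodes glycophorin B and had 4 peaks in a window of 43277 bp, all with GATA sites. The promoter peak chr4:144940396-144940820 was 425 bp wide, covered all 7 annotated starts and had 44.7% GC and 2 GATA sites. The intronic peak chr4:144924302-144924875 held 6 sites in 574 bp, or 10.5 per kb, and that at chr4:144927477-144927949 held 3 in 473 bp. A peak of 388 bp over exons of minor transcripts had 2. At 6.99 sites per kb inside peaks, GYPB had the highest density of GATA sites of the members.

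GYPB has a near-identical neighbour, GYPE, so reads may not map to a single copy. Of 75-base reads cut from the genome every 25 bases across the GYPB window, 71.2% mapped back to their own place, with a mapping quality of 10 or more. The other members ranged from 91.3% for RHAG to 98.0% for SPTB. Within the GYPB peaks the share was 55.0% in the promoter peak and 71.4% to 76.9% in the others. Of the 45 member peaks, 39 had at least 95% of such reads unique, or 86.7%, compared with 91.8% of all peaks, and the 6 below that level were the 4 of GYPB and 2 upstream of GYPC.

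**Figure D2:**
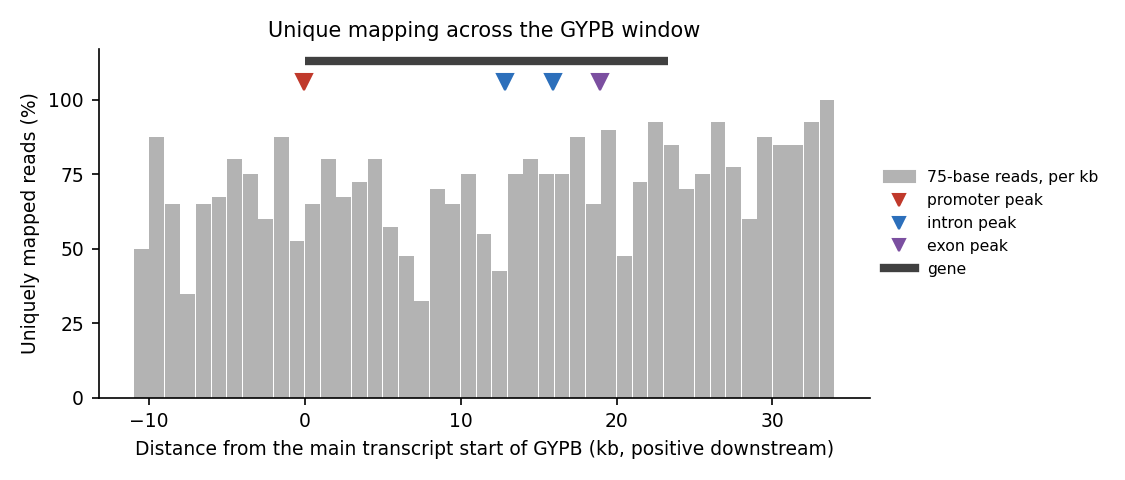
Share of 75-base reads that map uniquely (bars, % of the reads of each kb) across the GYPB window, by distance from the main transcript start in kb. Triangles above mark the centres of the 4 peaks and the dark line the gene. All 4 peaks lie where part of the reads map to more than 1 place, and the window as a whole had 71.2% unique reads.

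The copies of the GYPB peaks in GYPE were located by alignment. The promoter peak aligned over 425 bp at 98.4% identity, and its copy held a peak of 635 bp. The peak over minor exons aligned at 95.6%, and a peak of 255 bp was found there. The 2 intronic peaks aligned at 97.0% and 94.7%, and GYPE held no peak at either place. How far reads assigned to the wrong copy entered these peaks was not tested.

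Peaks per 100 kb of window ran from 2.60 for SPTB and 3.04 for ANK1, through 4.57 for EPB42, 5.93 for EPB41, 7.55 for SLC4A1, 7.74 for RHAG and 8.26 for GYPC, to 9.24 for GYPB. The median of 6.74 lay above the upper quartile of all coding genes, whose median was 1.77 (quartiles 0 and 4.81). SPTB, ANK1 and EPB42 were inside the quartiles and the other 5 members above them. The members with the most peaks, EPB41 and ANK1, were thus not those with the highest density.

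The other lists were red cell membrane genes outside the 8, genes of heme synthesis and paralogues of the members that serve mainly in other tissues. Of 34 other red cell membrane genes, 32 had a peak and 28 a promoter peak, at a median of 5.96 peaks per 100 kb, led by ICAM4 (32.5), BSG (27.9) and ACTB (20.9). ICAM4 spans only 1568 bp, and 5 of the 7 peaks in its window lay outside the gene. ACKR1 and CD44 had no peak. Of 9 heme synthesis genes, 9 had a peak and 8 a promoter peak, at a median of 8.12, with SLC25A38 (11.8) and ALAD (11.4) among the densest. Of the 13 paralogues, 9 had a peak and 6 a promoter peak, at a median of 1.38, with SLC4A2 (25.4) and SPTBN4 (6.91) among the densest, while ANK2, EPB41L3, RHBG and RHCG had none. By density, the paralogues were thus near the median of all coding genes, and the members and both other red cell lists above it. By number, the paralogues had a median of 2.0 peaks, in windows with a median of 130 kb. All coding genes had 1.0 in 47.2 kb, and the members 4.0 in 56.1 kb.

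**Figure D3:**
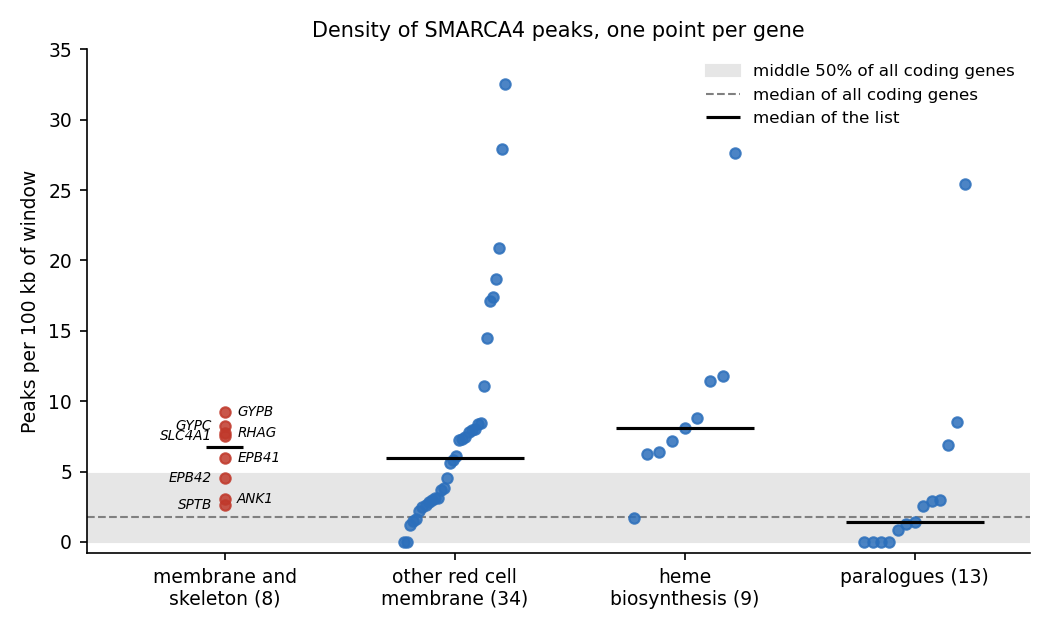
Peaks per 100 kb of window for each gene (points) of the members and of 3 further lists, with black lines at the median of each list. The dashed line is the median of all coding genes (1.77) and the grey band their middle 50% (0 to 4.81). Members range from 2.60 for SPTB to 9.24 for GYPB, with a median of 6.74.

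The median width of the 45 peaks was 450 bp (95% binomial interval of the median 368 to 696 bp), with a range of 60 to 1912 bp. Across all 28265 peaks it was 368 bp, with a range of 1 to 10019 bp. Of the member peaks 5 were narrower than 200 bp, and of all peaks 4631. With neighbours at most 500 bp apart merged, the median of the member peaks was 683.5 bp. That value is not comparable with the 368 bp of all peaks, which is for peaks that were not merged. The 13 member promoter peaks had a median of 467 bp (interval 368 to 944 bp), beside 414 bp for promoter peaks of all coding genes, and the 32 others 407 bp (interval 290 to 706 bp), beside 336 bp for other peaks in coding gene windows. The intervals of both classes took in the values of all peaks of the class. Intronic peaks alone had a median of 473 bp and peaks outside the gene 371 bp.

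**Figure D4:**
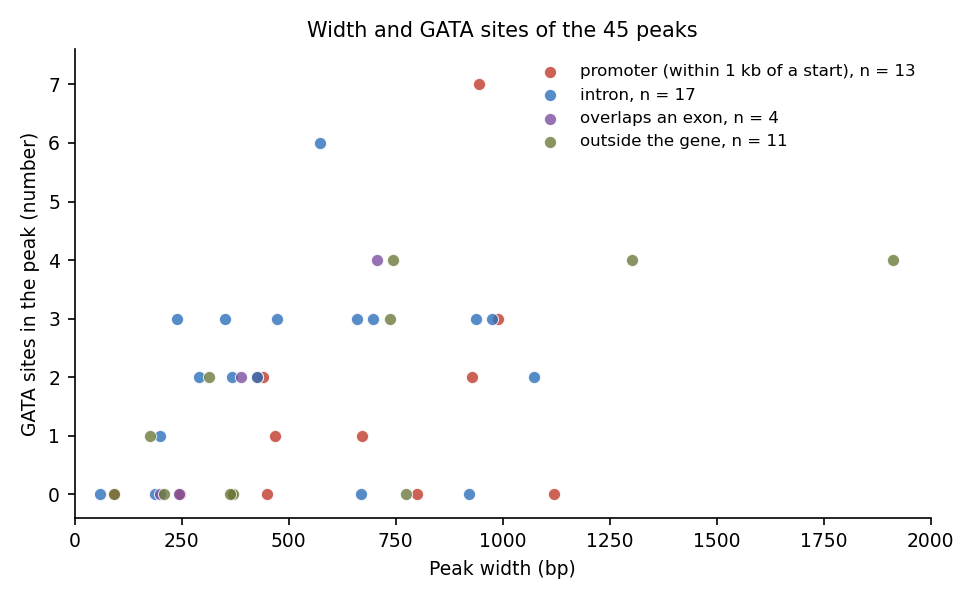
Width in bp and number of GATA sites of the 45 peaks, coloured by annotated feature. The EPB42 promoter peak has the most sites (7 in 944 bp) and the intronic GYPB peak follows (6 in 574 bp), while the widest peak, upstream of EPB41, has 4.

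A GATA site was found in 28 of the 45 peaks, or 62.2% (95% Wilson interval 47.6 to 74.9%), compared with 51.3% of all peaks. By class, 7 of 13 member promoter peaks had one, or 53.8% (interval 29.1 to 76.8%), beside 29.4% of promoter peaks of coding genes. Of the 32 others, 21 had one, or 65.6% (interval 48.3 to 79.6%), beside 68.6% of other peaks in coding gene windows. The share away from promoters was thus close to the background, and that at promoters was above it with an interval that only just took it in.

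In windows of equal length, the 200 bp around each peak centre, 24 of 45 member peaks had a GATA site, or 53.3% (interval 39.1 to 67.1%), beside the 40.2% of all peaks. At promoters the counts were 5 of 13, or 38.5% (interval 17.7 to 64.5%), beside 16.3% of promoter peaks of all coding genes. The lower end of this interval was above 16.3% only by a small margin, and 1 of the 5 counts through a site outside the peak itself. Away from promoters the share was 59.4%, as against 59.6%. The promoter peaks with a GATA site in this window belonged to SPTB, EPB42, SLC4A1, GYPB and RHAG, and in the 92-bp RHAG peak the site lay just beside the peak, so that 4 of 13 had a site of their own there and the margin rested on that 1 peak.

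The 45 peaks held 78 GATA sites, of which 43 lay within 100 bp of a peak centre, and 38 were on the strand of the gene. The share near the centre is not given here over all peaks, and it depends on peak width. In a peak of up to 200 bp every site lies within 100 bp of the centre. The 78 sites amounted to 3.05 per kb of peak, beside 2.24 over all peaks. Member promoter peaks had 2.27 per kb, beside 0.913 for promoter peaks of all coding genes. The other member peaks had 3.40, slightly below the 3.59 of other peaks in coding gene windows. Inside the peaks, as far as these lay within the windows, there were 77 sites in 25316 bp, or 3.04 per kb, and in the rest of the windows 1577 in 883807 bp, or 1.78 per kb. The ratio was 1.70, and it is not given here over all coding genes. It was above 1 in 7 of 8 members, lowest among them for ANK1 (8 sites in 5007 bp inside and 355 in 258514 bp outside) and highest at 2.99 for SLC4A1, and it was 0.796 for RHAG, whose window had 2.77 sites per kb outside peaks.

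**Figure D5:**
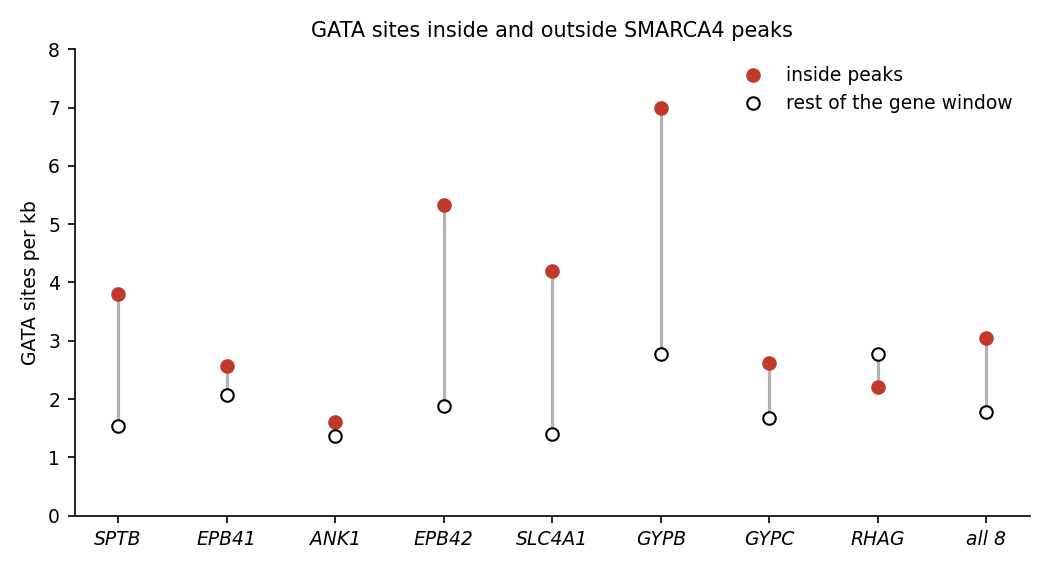
GATA sites per kb inside peaks (filled) and in the rest of the window (open) for each member and for all 8 together. Inside is above outside in 7 members, with the largest difference in sites per kb for GYPB (6.99 and 2.78) and the largest ratio for SLC4A1 (4.19 and 1.40), and below it in RHAG (2.21 and 2.77 per kb).

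Other motifs were counted in the same peaks on both strands. The E-box and GATA composite, the arrangement bound by TAL1 and GATA1 together, was in 16 of 45 member peaks, or 35.6%, compared with 15.2% of all peaks, and in the 200 bp around the centre in 26.7% (interval 16.0 to 41.0%) compared with 11.4%. It was in 4 of 13 promoter peaks, those of SPTB, SLC4A1, EPB42 and RHAG, beside 5.54% of promoter peaks of coding genes, and in the central 200 bp of 3 of 13, or 23.1% (interval 8.18 to 50.3%), beside 3.43%. Away from promoters it was in 12 of 32 whole member peaks, or 37.5%, beside 22.4% of other peaks in coding gene windows. In the central 200 bp it was in 28.1% (interval 15.6 to 45.4%), which took in the 17.7% of those other peaks. The AP-1 site was in 4 of 45 peaks, or 8.89%, compared with 20.9% of all peaks, and in 0 of 13 promoter peaks, beside 10.9% of those of coding genes. In the 200 bp around the centre, 4.44% of member peaks had an AP-1 site (interval 1.23 to 14.8%), beside 14.4% of all peaks. Away from promoters, 12.5% of whole member peaks had one, beside 28.1% of other peaks in coding gene windows, and in the central 200 bp 6.25% (interval 1.73 to 20.1%), beside 21.0%. In the central 200 bp, the interval for AP-1 sites thus took in the background over all peaks and ended just below it away from promoters. That for composites lay above the background over all peaks and at promoters, and took it in away from them. Promoter peaks were 13 of the 45 member peaks and 12629 of the 28265 in the list, so these shares compare groups of unlike makeup, and no difference was tested.

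The CACC boxes, which KLF1 binds, and the GC box were compared in the same way. CCACACCC was in 3 of 45 whole peaks, or 6.67%, beside 5.31% of all peaks, and in the central 200 bp in 2.22% (interval 0.393 to 11.6%), beside 2.58%. The looser CCNCNCCC was in 51.1% of whole peaks, beside 54.0%, and in the central 200 bp in 26.7% (interval 16.0 to 41.0%), beside 40.7%. GGGCGG was in 33.3% of whole peaks, beside 39.3%, and in the central 200 bp in 17.8% (interval 9.29 to 31.3%), beside 30.1%. The intervals of both boxes took in the share of the list, which holds relatively more promoter peaks. At promoters CCNCNCCC was in 84.6% of whole member peaks, beside 73.5% of those of coding genes, and in the central 200 bp in 61.5% (interval 35.5 to 82.3%), beside 58.5%. CCACACCC was in 2 of 13 whole promoter peaks, or 15.4%, beside 5.55%, and in the central 200 bp in 0 of 13, beside 2.32%. GGGCGG was in 69.2%, beside 66.5%, and in the central 200 bp in 46.2% (interval 23.2 to 70.9%), beside 52.9%. Away from promoters, CCNCNCCC was in 37.5% of whole member peaks, beside 37.8% of other peaks in coding gene windows. In the central 200 bp it was in 12.5% (interval 4.97 to 28.1%), beside 25.9%. GGGCGG was in 18.8% of these whole peaks, beside 17.1%, and in the central 200 bp in 6.25% (interval 1.73 to 20.1%), beside 11.5%.

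The G4 motif was in 14 of 45 whole member peaks, or 31.1%, beside 23.4% of all peaks. In the central 200 bp the shares were 13.3% (interval 6.26 to 26.2%) and 13.5%, so in windows of equal length they were alike. At promoters it was in 9 of 13 whole peaks, or 69.2%, beside 40.1% of promoter peaks of coding genes. In the central 200 bp it was in 38.5% (interval 17.7 to 64.5%), which took in the 23.6% of promoter peaks of coding genes. Away from promoters it was in 15.6% of whole member peaks, beside 9.54% of other peaks in coding gene windows. In the central 200 bp of these it was in 3.12% (interval 0.554 to 15.7%), beside 5.45%.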

How the data were processed

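The deposited list gives the chromosome, start and end of each peak in 3 columns, with no height or score. By the publication's methods, the authors trimmed reads (cutadapt 1.16), aligned them to hg19 (BWA 0.7.15), removed duplicates (Picard 2.14.0, SAMtools 1.6), called peaks in each replicate (MACS2 2.1.1, q-value below 0.05) and kept regions seen in at least 2 of 3 replicates (bedtools 2.26.0).

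Here peaks were set against the hg19 sequence and GENCODE release 44 mapped to it, with Python 3.11.15, numpy 2.4.6, scipy 1.17.1 and pysam 0.24.0. Reads were mapped with minimap2 2.31-r1302, copies aligned with blastn 2.17.0 and figures drawn with matplotlib 3.10.9. Counting steps were tested on simulated data. Each member was described with every peak, and in each other list the 3 densest genes and those without a peak were named, apart from some genes not reported here. Members and lists were chosen with earlier results of these data known, so no test was made.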

Additional observations from a re-analysis of the deposited data

How the results depend on the processing

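No paired analysis was possible because the list holds merged regions and no value of a single library, and for the same reason no replicate could be left out. All 8 members had a peak with flanks of 0, 2 or 50 kb, with peaks of at least 200 bp, with neighbours up to 500 bp apart merged and by peak midpoint, and the number of peaks in the windows ran from 32 to 65 over these settings. A promoter peak was present at 7 members rather than 8, SLC4A1 being lost, with 1 kb upstream only, with 500 bp either side and by midpoint. The share of all coding genes under these rules is not given here. The median width was 523.5 bp with peaks of at least 200 bp and 683.5 bp after merging. The share of member peaks with a GATA site was 77.8% when the 4 bases GATA were counted, and 53.3% to 69.4% under the other planned settings. Of these settings, only the central 200 bp (53.3%) has a share over all peaks given here, 40.2%. The others are not comparable with the 51.3% of all peaks, which was counted under the main rule. Extending peaks by 100 bp gave a density ratio of 1.55. Leaving repeats out was not run, since the genome sequence used does not mark them. At a mapping quality of at least 30, uniquely mapped reads fell to 96.5% for SPTB, 95.4% for ANK1, 87.4% for SLC4A1, 86.9% for EPB41, 93.2% for EPB42, 63.9% for GYPB, 94.1% for GYPC and 87.7% for RHAG, as a stricter threshold must. In settings chosen after seeing the data, the density ratio ran from 1.57 without GYPB to 1.96 without EPB41, and without EPB41 there were 30 peaks with a median width of 445.0 bp, 66.7% of them with a GATA site. The precision of every share is limited by the 8 genes and 45 peaks, and that of each peak by a read depth that the list does not give.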
